A study of Mus musculus with 14 samples.

Results

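Wdfy1, Heatr8, Eps8l1, Dnaic2 and Iffo2 are single genes whose counts differed by an unusually large amount between Fmr1 knock-out and control mouse cortex in at least one of the measures of the study. They are 5 of the 23412 genes in the count table, each found by its symbol, and all 5 were present. They were chosen for their differences between genotypes in RNA, exon, footprint or footprint-per-RNA counts. Those differences are therefore given here as descriptions, with no test.

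The study measured RNA and ribosome footprints in brain cortex. All mice, the controls included, carried floxed Rpl22 alleles (flox/flox) together with a Cre driven by CamK regulatory sequence (CamKCre+), and the knock-out (KO) mice in addition lacked Fmr1 (Fmr1X-Y). CamK-driven Cre acts mainly in excitatory neurons, and floxed Rpl22 is the allele of the RiboTag system, but the labels' protocols name no immunoprecipitation of tagged ribosomes, so the counts describe whole cortex tissue. The labels used here give no age. The RNA libraries came from controls 1, 3, 6 and 8 and from KO mice 2, 4, 5 and 7, which gives 4 per genotype. The footprint libraries came from controls 1, 3 and 9 and from KO mice 2, 4 and 10, which gives 3 per genotype. By their labels, mice 1 to 4 were in both assays.

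FMRP, the protein of Fmr1, binds mRNAs and ribosomes in neurons and influences their translation. In ribosome profiling, the mRNA fragments that ribosomes shield from nuclease are sequenced, so the footprint count of a gene reflects how many ribosomes sit on its mRNA. The 5 genes belong to different protein families. Wdfy1 encodes a protein with WD repeats and a FYVE domain that binds phosphatidylinositol 3-phosphate on early endosomes and acts as an adaptor in signalling from the Toll-like receptors TLR3 and TLR4. Heatr8, named Mroh7 in RefSeq, encodes a HEAT-repeat protein. Eps8l1 belongs to the EPS8 family of actin regulators. Dnaic2 encodes an intermediate chain of the outer dynein arm, the motor of motile cilia, which in brain are carried by ependymal cells. Iffo2 encodes a member of the intermediate filament family and is the paralog of Iffo1.

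Total counts per library were 8847547 to 11371851 in the RNA columns, 16351772 to 20793293 in the exon columns of the same RNA libraries, and 4124065 to 6033030 in footprints. The RNA column held 52.9% to 56.7% of the exon column's total in each library, and the sources used here do not state which region either column counts. Levels are given in CPM, the count scaled to a common library size. Fmr1, the targeted gene, had a mean RNA level of 83.0 ± 8.37 CPM in controls against 21.7 ± 2.40 CPM in KO mice (SD, n = 4 each), so that 26.1% remained in RNA and 6.56% in footprints. The genotypes did not overlap for Fmr1 in either assay. All pairs of libraries of the same genotype and assay differed by more than sampling noise. KO RNA libraries 2, 4 and 7 were the closest RNA pairs. Their chi-square per degree of freedom was 1.18 to 1.32, and it was 1.99 for control RNA libraries 1 and 3. Other RNA pairs of the same genotype reached 11.8. Footprint pairs lay between 1.15 and 1.42, so footprint libraries of the same genotype differed little beyond counting noise.

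Among the 5 genes, RNA levels did not overlap between genotypes in 3, Wdfy1, Heatr8 and Eps8l1, beside 15.1% of all genes tested. Exon levels did not overlap in the same 3 genes, beside 15.8% of all genes tested. Footprint levels did not overlap in all 4 genes with enough footprint counts for the fit, beside 37.3% of all genes tested. The genes were selected on these contrasts, so nothing is read from those counts.

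**Figure D1:**
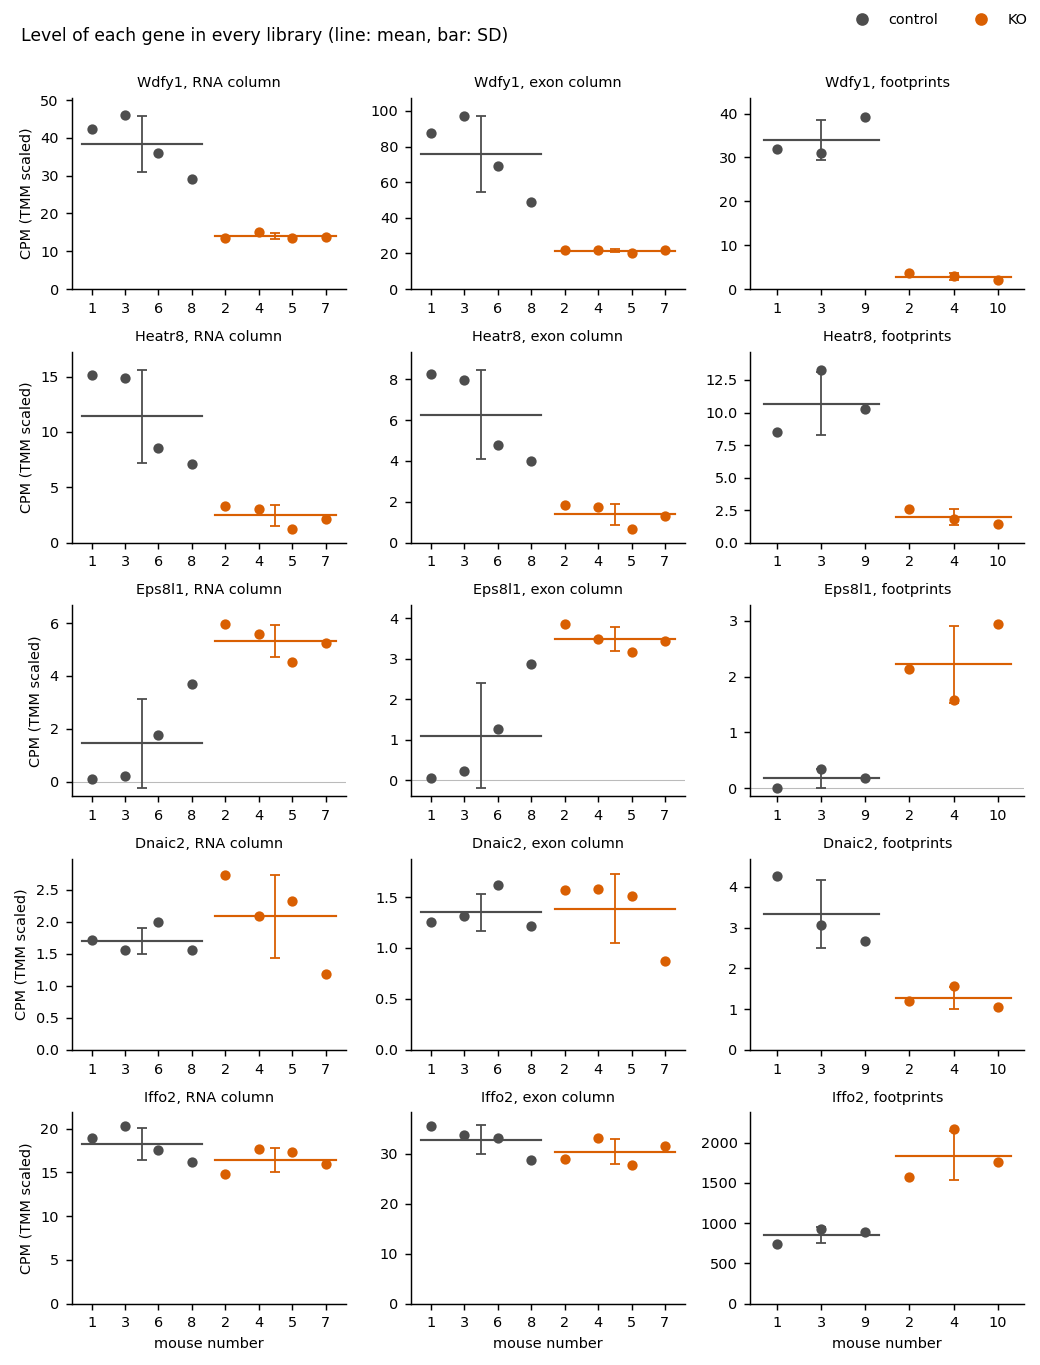
Levels of the 5 genes in every library, in CPM on a linear axis, by mouse number. Points are libraries, lines are group means and bars are SD (n = 4 per genotype in the RNA and exon columns, n = 3 in footprints). Wdfy1 and Heatr8 are lower in every KO library in all columns, Eps8l1 is higher, and Dnaic2 and Iffo2 separate by genotype in the footprint column only among the 3 columns shown.

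Wdfy1 was lower in all KO libraries, moderately in RNA and far more in footprints. Its RNA was at 42.3, 46.1, 36.1 and 29.1 CPM in control mice 1, 3, 6 and 8, and at 13.5, 15.1, 13.6 and 13.6 CPM in KO mice 2, 4, 5 and 7. The KO libraries lay close together, while control mouse 8 lay nearest to them. The mean was 38.4 ± 7.45 CPM over controls against 13.95 ± 0.754 CPM over KO mice (SD, n = 4 each), so that KO mice held 36.4% of the control RNA. The fitted log2 fold change was -1.46 ± 0.13 (SE), the 11th lowest of 13507 genes.

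The footprint counts of Wdfy1 fell further than its RNA counts. Footprints were at 31.9, 30.9 and 39.3 CPM in control mice 1, 3 and 9, and at 3.57, 2.92 and 2.10 CPM in KO mice 2, 4 and 10. These values rest on 538 footprints over the controls and 38 over the KO libraries. The KO mean of 2.86 ± 0.735 CPM (SD, n = 3) was 8.41% of the control mean of 34.0 ± 4.54 CPM (SD, n = 3). Only 2 genes had a lower fitted footprint change than its log2 fold change of -3.58 ± 0.19 (SE, 12158 genes), and Fmr1 was one of them. Relative to RNA, the log2 change in footprints (translational efficiency, TE) was -2.14 ± 0.29 (SE), the second lowest of 12145 genes.

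Because mice 1 to 4 were in both assays by their labels, the footprint level could be set against the RNA level under the same mouse number. The counts gave no support for this pairing beyond the labels. Deviations from the group means correlated between assays at -0.0050 to 0.046 over 8923 genes. The ratio of footprint CPM to RNA CPM of Wdfy1 was 0.754 and 0.672 in control mice 1 and 3, and 0.265 and 0.194 in KO mice 2 and 4. In control cortex Wdfy1 was an average gene in this respect. Its ratio over all control libraries was 0.887, at percentile 48.0 of 12145 genes, whose median was 0.913. In KO cortex the ratio was 0.205, at percentile 2.61.

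**Figure D2:**
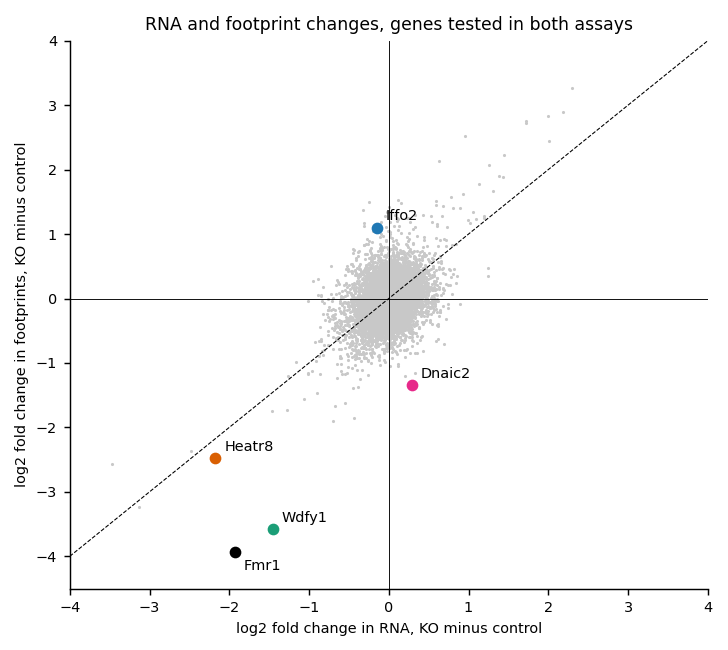
Log2 fold change (KO minus control) in RNA on the x axis and in footprints on the y axis, one point per gene fitted in both assays, with named points for Fmr1 and for the 4 genes that have both values. BC048546 lies outside the axes, and Eps8l1 had too few footprint counts for the fit. Wdfy1 lies beside Fmr1 below the diagonal of equal change, Heatr8 lies near the diagonal, and Dnaic2 and Iffo2 lie below and above 0 on the y axis with little change on the x axis.

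The exon column, which held more counts of the gene, gave a larger Wdfy1 difference than the RNA column. Exon levels were 87.9, 97.4, 69.1 and 48.9 CPM in controls 1, 3, 6 and 8, and 21.8, 22.2, 20.4 and 21.9 CPM in KO mice 2, 4, 5 and 7. KO mice held 28.5% of the control level, with a log2 fold change of -1.81 ± 0.17 (SE). The RNA column was taken here and below as a part of the exon column, which the sources do not state. On that reading, exon counts not in the RNA column averaged 55.05 ± 17.97 CPM over controls (SD, n = 4). They averaged 13.9 ± 0.602 CPM over KO mice (SD, n = 4), which is 25.2% of control. The share of Wdfy1's exon counts that lay in the RNA column was accordingly lower in controls, at 28.2% ± 3.87 (SD, n = 4), than in KO mice, at 35.6% ± 1.44 (SD, n = 4).

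Within the controls that share was not constant. It was 26.0% in mouse 1 (95% Wilson interval 24.0% to 28.2%), 24.9% in mouse 3 (22.9% to 26.9%), 28.3% in mouse 6 (25.8% to 30.9%) and 33.6% in mouse 8 (30.6% to 36.8%), against 34.3% to 37.4% in the KO libraries. The interval of control mouse 8, the control with the least Wdfy1, overlapped those of all KO libraries, and the interval of control mouse 6 overlapped those of KO mice 2 and 7. The mean rise of 7.38 percentage points was the 70th largest of 10561 genes with at least 100 exon counts in every library, whose median change was 0.525 points. Which transcripts or exons of Wdfy1 gave these counts was not measured.

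**Figure D3:**
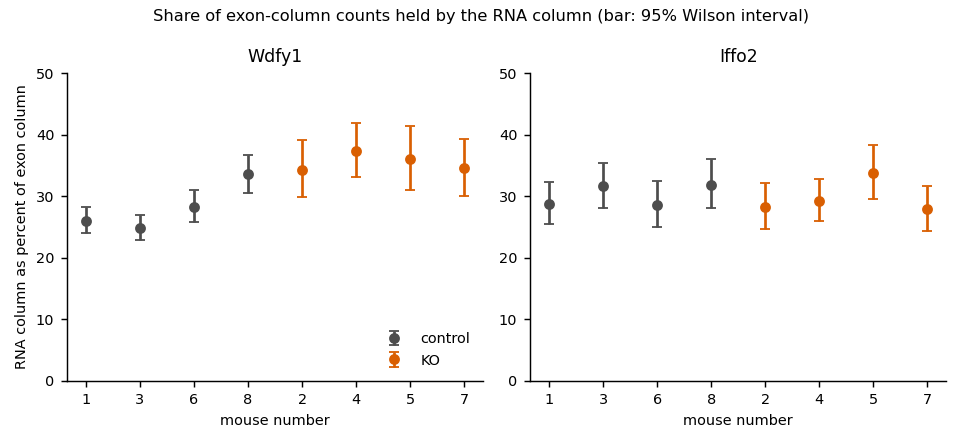
RNA-column count in percent of the exon-column count, for Wdfy1 (left) and Iffo2 (right) in each RNA library by mouse number. Points are single libraries and bars are 95% Wilson intervals, which cover counting error only. For Wdfy1, control mice 1, 3 and 6 lie between 24.9% and 28.3%, and control mouse 8 at 33.6% lies beside the KO libraries, while the Iffo2 shares of the genotypes overlap.

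Heatr8 was lower in KO cortex by about the same factor in RNA, exon and footprint counts. Its RNA was at 15.1, 14.8, 8.52 and 7.12 CPM in control mice 1, 3, 6 and 8, and at 3.32, 3.05, 1.28 and 2.18 CPM in KO mice 2, 4, 5 and 7. KO mice held 21.6% of the control level, on 102 counts against 443. The groups did not overlap, yet controls 6 and 8 lay well below controls 1 and 3.

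Footprints of Heatr8 were at 8.52, 13.3 and 10.3 CPM in controls 1, 3 and 9, and at 2.62, 1.80 and 1.47 CPM in KO mice 2, 4 and 10, or 18.3% of control. The fitted log2 fold changes were -2.18 ± 0.29 (SE) in RNA, the 4th lowest, -2.14 ± 0.29 (SE) in the exon column and -2.47 ± 0.27 (SE) in footprints, the 6th lowest. The TE change was -0.31 ± 0.55 (SE), and it was -0.60 without control mouse 1 and -0.12 with mouse as a replicate block over mice 1 to 4. The footprint-to-RNA ratios of single mice overlapped as well, with 0.563 and 0.894 in control mice 1 and 3 and 0.787 and 0.589 in KO mice 2 and 4. Almost all exon counts of Heatr8 lay in the RNA column, 98.2% in controls and 97.2% in KO mice.

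Eps8l1 was higher in KO cortex, from a control level that differed strongly between mice. The RNA libraries of control mice 1, 3, 6 and 8 held 1, 2, 16 and 38 counts, which are 0.101, 0.207, 1.77 and 3.71 CPM. KO mice 2, 4, 5 and 7 held 61, 64, 39 and 53 counts, which are 5.96, 5.58, 4.54 and 5.24 CPM. The lowest KO library was above the highest control, but control mouse 8 lay closer to the KO libraries than to control mice 1 and 3. The KO mean was 5.33 ± 0.604 CPM and the control mean 1.45 ± 1.69 CPM (SD, n = 4 each), a 3.68-fold difference, with a control SD larger than the control mean.

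The fitted log2 fold change of Eps8l1 RNA was 1.86 ± 0.48 (SE), the 5th highest of 13507 genes. It was 5.13 over mice 1 to 4 alone, 0.82 over mice 5 to 8 alone, and 2.99 without control mouse 8, so its size rests on which controls are included. The exon column showed the same order of mice, with 0.0545, 0.218, 1.26 and 2.86 CPM in controls 1, 3, 6 and 8 and 3.85, 3.49, 3.15 and 3.45 CPM in KO mice 2, 4, 5 and 7. Its exon log2 fold change was 1.67 ± 0.51 (SE), and 2.82 without control mouse 8.

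Footprints of Eps8l1 were few. Controls 1, 3 and 9 held 0, 2 and 1 counts, and KO mice 2, 4 and 10 held 9, 7 and 14. The sum was 3 counts in controls and 30 in KO mice, a ratio of 11.7 at equal depth (exact 95% interval 3.65 to 60.0, counting error only). The count of 0 in control mouse 1 allows up to 3 counts, or 0.708 CPM. The gene did not pass the filter on low footprint counts, so it has no fitted footprint or TE change.

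In Wdfy1, Heatr8 and Eps8l1 alike, control mice 6 and 8 lay nearer to the KO level in RNA than control mice 1 and 3. The titles of the RNA libraries of mice 5 to 8 share a prefix, mice 1 and 2 share another, and mice 3 and 4 have one of their own. The labels do not say what the prefixes stand for, and each holds both genotypes. In footprints, mice 1 and 2, mice 3 and 4, and mice 9 and 10 share a prefix each, with 1 control and 1 KO mouse. With the prefix as a block, the RNA log2 fold change was -1.45 for Wdfy1, -2.20 for Heatr8 and 1.93 for Eps8l1, close to the values without it. Within mice 5 to 8, the RNA log2 fold change of Wdfy1 was -1.25, and in the exon column it was -1.47, against -2.07 in the exon column within mice 1 to 4. Heatr8 kept a log2 fold change between -2.35 and -1.99 in RNA under all the alternatives run. What sets the controls apart was not tested.

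Dnaic2 was measured at low counts, and its genotype difference lay in footprints. RNA was at 1.71, 1.56, 1.99 and 1.56 CPM in controls 1, 3, 6 and 8, and at 2.74, 2.09, 2.33 and 1.19 CPM in KO mice 2, 4, 5 and 7. The groups overlapped, because KO mouse 7 lay below all controls and the other KO mice above them. The log2 fold change was 0.29 ± 0.26 (SE) in RNA and 0.046 ± 0.22 (SE) in the exon column, and it was -0.037 in RNA over mice 5 to 8 alone.

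Footprint counts of Dnaic2 were 18, 18 and 15 in control mice 1, 3 and 9 and 5, 7 and 5 in KO mice 2, 4 and 10. These are 4.26, 3.06 and 2.66 CPM against 1.19, 1.57 and 1.05 CPM, with no overlap. The KO mean was 38.2% of control, and the ratio of summed counts, scaled to equal depth, was 0.391 (exact 95% interval 0.212 to 0.688, counting error only). The fitted log2 fold change was -1.34 ± 0.41 (SE) in footprints, the 19th lowest, and -1.65 ± 0.46 (SE) in TE, the 4th lowest. The footprint-to-RNA ratio was 2.48 and 1.97 in control mice 1 and 3 and 0.435 and 0.751 in KO mice 2 and 4. Over all control libraries the ratio was 1.95, at percentile 92.2 of all genes, and over KO libraries 0.609, at percentile 26.7.

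Iffo2 carried far more footprints per RNA than nearly any other gene in both genotypes, and more in KO than in control cortex. Its RNA was at 18.9, 20.3, 17.5 and 16.2 CPM in controls 1, 3, 6 and 8, and at 14.7, 17.7, 17.3 and 15.9 CPM in KO mice 2, 4, 5 and 7. The groups overlapped, and the log2 fold change was -0.15 ± 0.099 (SE) in RNA and -0.11 ± 0.080 (SE) in the exon column. Footprint counts were 3110, 5484 and 5012 in controls 1, 3 and 9, and 6641, 9666 and 8401 in KO mice 2, 4 and 10.

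In CPM, the footprints of Iffo2 were at 736, 932 and 890.2 in controls and at 1579, 2170 and 1764 in KO mice. The groups did not overlap, and the KO mean of 1837 ± 302 CPM (SD, n = 3) was 2.15-fold the control mean of 853 ± 104 CPM (SD, n = 3). The log2 fold change was 1.10 ± 0.042 (SE) in footprints, the 59th highest, and 1.25 ± 0.16 (SE) in TE, the 13th highest. The SE of the footprint change comes from the model's shrunken spread, and the log2 levels of the libraries had a pooled SD of 0.21.

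The ratio of footprint CPM to RNA CPM of Iffo2 was 38.8 and 45.9 in control mice 1 and 3, and 107 and 123 in KO mice 2 and 4. Over all control libraries it was 46.7, the second highest of 12145 genes after BC048546 at 4067. Prrt1 was next at 19.2, while the median gene had 0.913. In KO cortex the Iffo2 ratio was 112, the highest of all genes. BC048546 had a footprint log2 fold change of -10.57 beside an RNA log2 fold change of 0.026. Whether ratios as extreme as those of BC048546 and Iffo2 reflect ribosomes on the mRNA was not tested. Where along the Iffo2 mRNA the footprints lay cannot be read from counts per gene. The share of its exon counts in the RNA column was 30.2% ± 1.80 in controls and 29.8% ± 2.74 in KO mice (SD, n = 4 each).

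**Figure D4:**
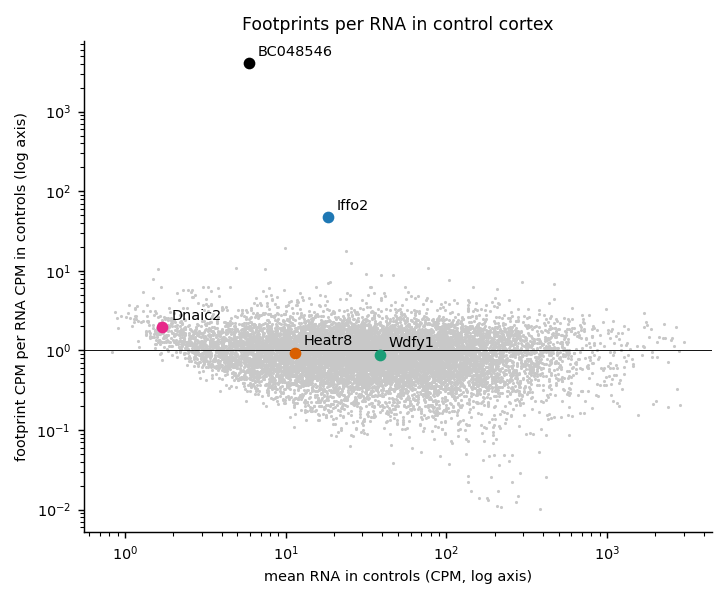
Ratio of mean footprint CPM to mean RNA CPM in control cortex (y, log axis) against the mean RNA level in controls (x, CPM, log axis), with 1 point per gene fitted in both assays and a line at a ratio of 1. Iffo2 at 46.7 stands far above the bulk of genes, with BC048546 alone above it, Wdfy1 at 0.887 and Heatr8 at 0.938 lie in the middle, and Dnaic2 at 1.95 lies in the upper part. Eps8l1 is not shown, since it had too few footprint counts.

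The pathways and families of the 5 genes were then counted without the genes themselves, with edgeR's quasi-likelihood test and Benjamini-Hochberg adjustment over all genes tested, at an adjusted p under 0.05. Over all genes, 7.41% passed in RNA (3.53% higher and 3.88% lower in KO), 25.5% in footprints (11.9% higher and 13.6% lower) and 7.81% in TE (3.4% higher and 4.41% lower). In the exon column 8.55% passed (4.21% higher and 4.35% lower). On plain library sizes, without TMM, 66.3% of footprint calls were higher in KO, in place of 46.7%. The lists were written with earlier results of these data known, so the counts describe the genes and support no claim about a list. The close RNA libraries were also pooled, KO mice 2, 4 and 7 into 1 and controls 1 and 3 into 1. Each RNA call named below was then lost (adjusted p from 0.0752 for Gfap to 0.45 for Ikbkg). Footprint libraries, whose pairs were about as close, were not pooled, so whether footprint calls would hold in that way was not tested.

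Of 29 FYVE-domain and WDFY genes, RNA rose for 1 and fell for 1. Footprints rose for 2 and fell for 5, with a list median log2 fold change of -0.015 beside 0.0055 over all genes. Wdfy3, a large autophagy adaptor and relative of Wdfy1, had lower footprints (log2 fold change -0.34 ± 0.041 SE, edgeR adjusted p = 2.69e-11) and lower TE (-0.43 ± 0.068 SE, adjusted p = 0.000384) and both calls held with each mouse left out. Its RNA differed by 0.07 ± 0.050 (SE, adjusted p = 0.404). Footprints also fell for Eea1, an early endosome tether (-0.31, adjusted p = 0.000243), and rose for Zfyve21 (0.64, adjusted p = 0.00219). Wdfy2 and Wdfy4, the other named relatives, passed in no measure, with footprint log2 fold changes of -0.33 ± 0.21 and -0.053 ± 0.37 (SE).

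Of the other named genes in that list, 4 had calls that did not hold with each mouse left out. The footprint call of Zfyve1 (-0.25) was lost without mouse 1, 2, 3 or 4 (adjusted p 0.0693 to 0.212), and that of Rufy1 (0.24) without mouse 1, 2, 4 or 9 (adjusted p 0.056 to 0.228). In RNA, Fgd3 (-0.52) lost its call without mouse 1, 2, 3 or 7 (adjusted p 0.0592 to 0.0741), and Fgd6 (0.32) without mouse 2, 3, 4, 6 or 7 (adjusted p 0.075 to 0.108).

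The TLR3 and TLR4 pathway, in which Wdfy1 acts as an adaptor, gave few calls. In RNA 1 of 24 genes fell and none rose. This was Ikbkg, the regulatory subunit of the IκB kinase complex (-0.31 ± 0.085 SE, edgeR adjusted p = 0.0368), a call lost without any of mice 1, 2, 3, 4, 6 and 7 (adjusted p 0.0767 to 0.126). Of 20 genes tested in footprints and in TE, edgeR called 0, with 2 and 1 genes at an unadjusted p under 0.05. DESeq2 also called 0 in each, but gave an adjusted p to only 15 genes in footprints and 14 in TE.

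Of the genes for axonemal dyneins and other motile cilium parts, RNA fell for 2 of 33 and rose for 0. These were Spag16 (-1.11 ± 0.27 SE, edgeR adjusted p = 0.0225), a central pair protein whose call was lost without mouse 1, 2, 4, 6 or 7 (adjusted p 0.0522 to 0.083), and the radial spoke gene Rsph9 (-0.50 ± 0.10 SE, adjusted p = 0.0101). Footprints fell for 4 of 20 and rose for 1 with edgeR. DESeq2 gave an adjusted p to 9 of these genes, not to Dnahc6, and called 2, Dnahc5 and Dnalc1. The dynein heavy chain Dnahc6 fell from 8.71 ± 1.70 to 3.29 ± 0.890 CPM (SD, n = 3; log2 fold change -1.39 ± 0.25 SE, adjusted p = 6.5e-06) and Dnahc5 by 0.81 (adjusted p = 0.000722), while the light chain Dnalc1 rose by 0.31 (adjusted p = 0.0017). The footprint call of Dnahc1 (-0.54, adjusted p = 0.0145) was lost without mouse 1, 4 or 10 (adjusted p 0.0556 to 0.0992). In TE edgeR called 0 of 20 of these genes, with 3 at an unadjusted p under 0.05. DESeq2 also called 0 in TE, but gave an adjusted p to only 5 of them. The list's median TE change was -0.18 beside -0.011 over all genes. The TE change was -0.95 ± 0.53 (SE) for Dnahc6 and -0.41 ± 0.26 (SE) for Dnahc5. Dnaic1, the relative of Dnaic2, was tested in RNA and exon counts only, with an RNA log2 fold change of -0.10 ± 0.19 (SE).

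Of 11 ependymal markers tested in RNA, from the cells that carry the motile cilia of the brain, 2 fell and 0 rose, and the list's median log2 fold change was -0.47. The summed level of all 14 markers was 36.4 to 43.7 CPM over control and 26.7 to 34.1 CPM over KO RNA libraries, and no marker was at 0. In footprints 1 of 7 tested ependymal markers fell and 0 rose, and the sums overlapped, with 27.2 to 39.5 CPM in controls and 29.2 to 32.8 CPM in KO mice. Foxj1, the regulator of motile cilia, named after its values were seen, overlapped in RNA at 4.87 to 6.15 CPM in controls and 5.64 to 7.62 CPM in KO mice. Of 7 choroid plexus markers tested in RNA, 1 fell, with a median log2 fold change of -0.49, and of 6 tested in footprints 2 fell. Their RNA sums overlapped, at 540 to 970 CPM in controls and 519 to 698 CPM in KO mice.

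Of 8 excitatory neuron markers, 2 rose in RNA, and their sums were 2595 to 2865 CPM in controls and 3226 to 3502 CPM in KO mice. Camk2a, singled out after its values were seen, had an RNA log2 fold change of 0.75 from 467 CPM in controls, and a footprint log2 fold change of -0.14. In footprints 3 of the 8 markers rose and 1 fell, and the sums overlapped, at 5674 to 5806 CPM in controls and 5462 to 5720 CPM in KO mice. Of 8 oligodendrocyte markers, 1 fell in RNA, with sums of 5150 to 5662 CPM in controls and 4541 to 4881 CPM in KO mice, while in footprints 3 rose and 3 fell. The RNA sums of inhibitory neuron markers (875 to 935 CPM in controls, 900 to 1034 CPM in KO mice) and astrocyte markers (3734 to 4156 and 3886 to 4694 CPM) overlapped, as did those of microglia (393 to 467 and 382 to 410 CPM) and endothelial markers (144 to 265 and 162 to 262 CPM). In RNA 2 of 8 astrocyte markers fell and 0 rose, 1 inhibitory marker rose and 1 fell, 1 microglia marker fell, and edgeR and DESeq2 called 0 of 8 endothelial markers (0 at an unadjusted p under 0.05). In footprints the inhibitory sums did not overlap, at 1820 to 1876 CPM in controls and 1967 to 1999 CPM in KO mice, with 4 of 8 markers higher and 1 lower. The inhibitory sums were also apart on plain library sizes (1775 to 1836 against 2006 to 2031 CPM). The order of other footprint sums depended on the scaling. The oligodendrocyte and astrocyte sums were lower in KO mice with TMM (8785 to 8944 against 8640 to 8671 CPM and 6383 to 6464 against 6339 to 6372 CPM) and higher on plain library sizes (8567 to 8750 against 8788 to 8842 CPM and 6225 to 6328 against 6458 to 6499 CPM), and the microglia and endothelial sums overlapped under one of the scalings. In such tissue, fewer cells of a type and less RNA per cell cannot be told apart, and the part of these differences in the values of the 5 genes was not tested.

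Of the EPS8 family and its actin partners, RNA rose for 2 of 19 and fell for 0. Rac1, a small GTPase that drives actin assembly, rose by 0.32 ± 0.057 (SE, edgeR adjusted p = 0.00549), and Wasl, an activator of branched actin, by 0.31 ± 0.068 (SE, adjusted p = 0.0157), a call lost without mouse 2, 4 or 6 (adjusted p 0.0549 to 0.0587). Footprints rose for 3 and fell for 3 of 18. The capping proteins Capzb (0.17, adjusted p = 6.68e-05) and Capza2 (0.16, adjusted p = 0.000215) rose, and Abi1 (-0.24, adjusted p = 9.8e-05) and Wasf1 (-0.18, adjusted p = 2.56e-06) fell. The other footprint calls were lost with 1 mouse left out, Nckap1 (0.067), like Abi1 and Wasf1 a gene of the WAVE complex, without mouse 2, 3, 9 or 10 (adjusted p 0.0588 to 0.274) and Baiap2 (-0.11) without mouse 1 or 10 (adjusted p 0.0618 and 0.0763). In TE 1 of 18 rose and 3 fell, of which Wasl (-0.44 ± 0.086 SE, adjusted p = 0.00243) held with each mouse left out but not with the exon columns (0.0929). The TE falls of Wasf1 (-0.47) and Rac1 (-0.29) were lost without mouse 1, 2, 3 or 4, and that of Wasf1 also without mouse 6, 9 or 10 (adjusted p up to 0.105 and 0.13). The TE rise of Capza2 (0.27) was lost without mouse 2, 3, 4, 7 or 9 (adjusted p up to 0.124). Eps8, the founding member of the family, had an RNA log2 fold change of 0.10 ± 0.066 (SE, adjusted p = 0.396), Eps8l2 of -0.31 ± 0.32 (SE, adjusted p = 0.613), and Eps8l3 was too low to test.

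Of the intermediate filament and lamin genes, the family of Iffo2, footprints fell for 8 of 14 and rose for 0 with edgeR, with a median log2 fold change of -0.26, and DESeq2 called 6. The largest falls were Lmnb1, a nuclear lamin (-0.68 ± 0.13 SE, edgeR adjusted p = 7.23e-06), the lens filament gene Bfsp2 (-0.60 ± 0.17 SE, adjusted p = 0.00462, lost without mouse 10 at 0.173 and with DESeq2 at 0.0539) and Synm, or synemin (-0.54 ± 0.093 SE, adjusted p = 2.1e-06). In RNA 2 of 16 fell and 1 rose. Gfap, the astrocyte filament protein, fell from 169 ± 4.08 to 122 ± 4.56 CPM (SD, n = 4; log2 fold change -0.47 ± 0.051 SE, adjusted p = 0.000321). Bfsp2 RNA fell by 0.63 (adjusted p = 0.0193), a call lost without mouse 1, 3 or 7 (adjusted p 0.055 to 0.0704). Ina, a neuronal filament, rose by 0.23 (adjusted p = 0.0169), a call lost without mouse 1, 2, 4, 6 or 7 (adjusted p 0.0511 to 0.072). In TE Ina was the 1 of 14 called, lower by 0.29, a call lost without mouse 2, 3, 4, 9 or 10 (adjusted p 0.0612 to 0.138). Iffo1 had a footprint log2 fold change of -0.24 ± 0.096 (SE, adjusted p = 0.0531). Of the HEAT-repeat genes, to which Heatr8 belongs, edgeR called 0 of 8 in RNA and 0 of 7 in footprints and in TE. In these measures 0, 0 and 1 were at an unadjusted p under 0.05. DESeq2 also called 0 in each, of 7, 7 and 6 genes to which it gave an adjusted p.

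The genes beside the 5 on the chromosome were counted in the same way. The 3 nearest protein-coding genes on each side of each gene make 30, of which 20 were tested in RNA. Their RNA log2 fold changes lay between -0.46 and 0.15, and 2 passed, both lower in KO (edgeR, beside 3.88% of all genes). Mrpl44, a mitochondrial ribosomal protein gene that overlaps Wdfy1 in RefSeq, had an RNA log2 fold change of -0.097 ± 0.083 (SE, adjusted p = 0.524). Scg2, a secretogranin gene next but one to Wdfy1, fell by 0.24 (adjusted p = 0.0212), a call lost without mouse 2, 4 or 7 (adjusted p 0.0662 to 0.0832). Its footprints fell by 0.16 (adjusted p = 9.1e-07), a call that held with each mouse left out. Rdh13, which overlaps Eps8l1, differed by 0.11 ± 0.091 (SE, adjusted p = 0.492). The files do not state whether counting used strand, so reads from overlapping genes may be shared.

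Beside Heatr8, Ttc4 had an RNA log2 fold change of -0.0069 ± 0.094 (SE, adjusted p = 0.975), and none of the 5 tested neighbours of Heatr8 passed. Beside Dnaic2, the kinesin gene Kif19a, whose protein acts in motile cilia, had lower RNA (-0.46 ± 0.11 SE, adjusted p = 0.0228) and lower footprints (-0.66 ± 0.19 SE, adjusted p = 0.00556). Its RNA call was lost without mouse 1, 2, 3, 4 or 7 (adjusted p 0.0537 to 0.0753), and its footprint call with DESeq2 (adjusted p = 0.0526). Sdk2, a cell adhesion gene on the other side of Dnaic2, had lower footprints (-0.35 ± 0.078 SE, adjusted p = 0.000264) and lower TE (-0.51 ± 0.098 SE, adjusted p = 0.0023), and both calls held with each mouse left out. Beside Iffo2, Ubr4, a large ubiquitin ligase gene, had lower footprints (-0.40 ± 0.034 SE, adjusted p = 4.1e-18), whereas Iffo2 footprints were higher. In all, footprints fell for 4 and rose for 0 of 18 neighbours tested, beside 13.6% of all genes that fell.

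Genes were also ranked by how closely their RNA level followed each of the 5 genes over the 8 RNA libraries (Pearson r of log2 CPM, among genes that averaged 1 CPM or more). This is a description over libraries that differ by genotype and share the pattern of controls 6 and 8, and it has no p. Closest to Wdfy1 were Serpina3n (r = 0.99), a protease inhibitor of reactive astrocytes, Avp (0.99), the vasopressin gene, and Prpf31 (0.99), and Heatr8 itself had r = 0.95 and Eps8l1 r = -0.86 with Wdfy1. Closest to Heatr8 were Meig1, Pmch and Col23a1 (r of 0.99, 0.99 and 0.98), and Meig1 is one of the ependymal markers. It was at 3.12, 3.01, 2.44 and 2.05 CPM in controls 1, 3, 6 and 8 and at 1.16 to 1.57 CPM in KO mice. Closest to Eps8l1 were B3gnt2, St3gal5 and Fbxl16 (0.99 each).

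Such likeness was common, since 300 genes had r over 0.9 with Wdfy1, 257 with Eps8l1 and 186 with Heatr8, of 13470 genes. For Iffo2, 54 genes did, led by Ncoa4 (0.97), and for Dnaic2 only 3, Ddit4l, Senp8 and Ap5m1 (0.94, 0.93 and 0.90). Over the 6 footprint libraries, 1042 of 13015 genes had r over 0.9 with Wdfy1, led by Bai1, Hivep1 and Ncam1 (r of 0.998, 0.998 and 0.997).

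**Figure D5:**
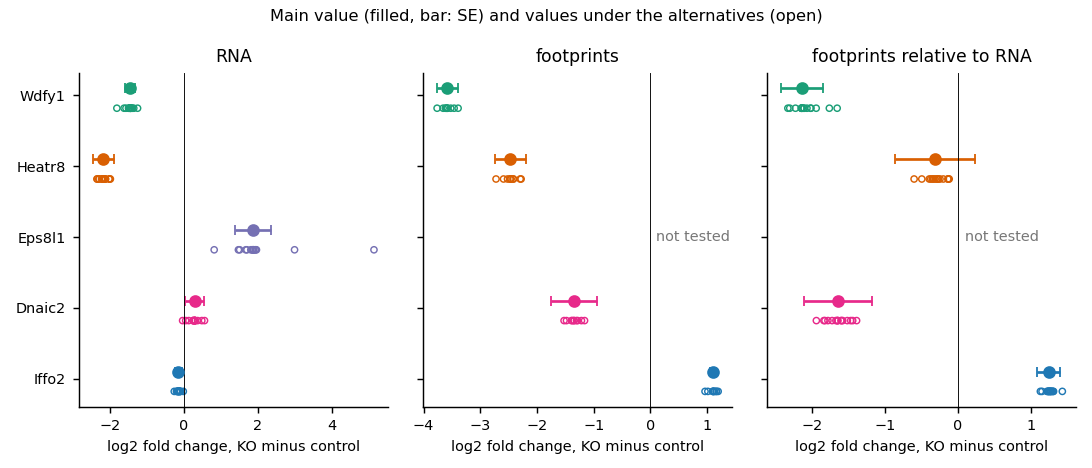
Log2 fold change (KO minus control) of the 5 genes in RNA, in footprints and in footprints relative to RNA. Filled points are the reported values with their SE, and open points are the values under each alternative run. The Wdfy1 values stay between -1.81 and -1.25 in RNA and between -3.76 and -3.39 in footprints, while Eps8l1 spans 0.82 to 5.13 in RNA and was not fitted in the other panels.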

How the data were processed

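The deposited data are the authors' raw read counts for each gene, in a single table without normalization. Per the submitters' processing notes, Bowtie2, STAR 2.5, featureCounts and Subread 1.4.6 were used. The counted region, annotation and strand setting are not given in the sources used here, and those notes name 2 genome builds without a role, so no coordinates are printed. RefSeq (GRCm38.p6) served for names and neighbour order only.

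From the counts, CPM with TMM factors were computed. RNA, exon and footprint counts were tested with edgeR 4.0.16 (R 4.3.3; quasi-likelihood F test, TMM, filterByExpr at a minimum count of 10, group means), and TE as the interaction of genotype and assay over all 14 libraries. Tests were two-sided, Benjamini-Hochberg adjusted over all genes tested, and checked on simulated counts. The labels give each library a mouse, but with no word on litters, so p-values measure the spread between these mice. Intervals are Wilson or exact at 95% and cover counting error only.

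The 5 genes and all gene lists were chosen with earlier results of these data known. Other named genes are, per list and measure, up to 3 called genes with the largest rise and 3 with the largest fall, named relatives, the nearest neighbours, and the 3 genes of highest correlation. Of these, some are given only as counts. Mice 1 to 4 pair RNA with footprints by the labels. Their deviations from the group means correlated between assays at 0.0038, 0.015, 0.046 and -0.0050 over 8923 genes. The counts therefore gave no support for the pairing beyond the labels. Alternatives were plain library sizes, no filter, DESeq2 1.42.0, single mice left out, summed close libraries, mice 1 to 4 or 5 to 8 alone, exon columns, a mouse block, and, added after seeing the data, the title prefix as a block.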

Additional observations from a re-analysis of the deposited data

Results flagged for a closer look

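Of 34 groups of 4 libraries examined for a library far from the others, 3 held one whose gap to its nearest neighbour exceeded Dixon's 95% critical value, where chance flags about 1 in 20 groups, here about 1.7. Wdfy1 RNA in KO mouse 4 was 15.1 CPM, above the nearest KO library at 13.6 CPM (gap 0.895 of the range). The exon level of Dnaic2 in KO mouse 7 was 0.875 CPM, below the nearest KO library at 1.51 CPM (gap 0.906 of the range), and without KO mouse 7 the exon log2 fold change of Dnaic2 was 0.21 in place of 0.046. The exon-column total of control mouse 6 was 16649299 counts, below the nearest control at 18115062 (gap 0.896 of the range).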

How the results depend on the processing

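The count of called genes moved with the libraries used. In RNA it was 1001, and 356 to 1763 with single mice left out, 36 with close libraries summed, 88 over mice 5 to 8 alone and 3273 over mice 1 to 4 alone. In the exon column it was 1246, and 516 to 1888, 32, 19 and 3717 under the same settings. In footprints it was 3102, and 1821 with DESeq2. In TE it was 949, 419 to 1289 with single mice left out, and 1861 with mouse as a replicate block over the paired mice 1 to 4. With the title prefix as a block, an alternative chosen after seeing the data, the counts were 958 in RNA, 1037 in the exon column, 3196 in footprints and 786 in TE, and of the calls named above it ended those of Ikbkg in RNA (adjusted p = 0.0533) and of Rac1 and Wasf1 in TE (0.0539 and 0.0691). On plain library sizes the share of calls higher in KO was 66.3% in place of 46.7% in footprints and 68.2% in place of 43.5% in TE.

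Wdfy1, Heatr8 and Eps8l1 kept their direction in every measure fitted and under each alternative run, as did Iffo2. Dnaic2 kept it in footprints and TE, while its log2 fold change ranged from -0.037 to 0.55 in RNA and from -0.25 to 0.30 in the exon column. With the replicate block the TE change was -1.66 for Wdfy1 (reported -2.14), -0.12 for Heatr8 (-0.31), -1.94 for Dnaic2 (-1.65) and 1.44 for Iffo2 (1.25). Counting error is wide for the footprints of Eps8l1 (3 against 30 counts) and Dnaic2 (51 against 17 counts). Of the values of other named genes under the alternatives, 2809 kept their side of the threshold, 196 lost it and 69 gained it. The causes were not tested.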
